A study of Mus musculus with 10 samples.

Results

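The C/EBP transcription factors are described here in 3 walls of the mouse heart, that of the right ventricle (RV), that of the left ventricle (LV) and the septum between the ventricles. Their 6 genes, Cebpa, Cebpb, Cebpd, Cebpe, Cebpg and Cebpz, were found through the RefSeq accession that each array probe carries, among 22911 genes named in this way, and 7 probes stood for them. Cebpg had 2 probes and each of the other genes had 1. The hearts came from C57BL/6N mice, the strain given for all arrays, and the labels give no age, treatment, allele or transgene for any region. Each sample was total RNA of a whole piece of frozen heart wall, hybridised to a single-colour Agilent array, and there were 4 RV, 3 LV and 3 septum arrays. According to the design text, separate individuals were used for each experiment, but the labels do not tie an array to an animal, so the p-values measure the spread between these arrays. In pieces of whole tissue, more cells that express a gene and more RNA per cell cannot be told apart. The comparisons ask which C/EBP transcripts differ between the heart walls, within a study that screened for genes typical of the RV.

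C/EBP proteins bind DNA as pairs through a basic region and a leucine zipper, and most of them activate transcription. In fat cell precursors, C/EBP beta and C/EBP delta are induced early and C/EBP alpha, the product of Cebpa, is induced later and maintains the fat cell programme together with PPAR gamma. C/EBP beta and C/EBP delta also drive acute-phase genes after cytokine signals, and C/EBP epsilon drives some granule genes of granulocytes. C/EBP gamma lacks a strong activation domain and dampens or redirects its partners. The product of Cebpz, in spite of its name, carries no leucine zipper of this kind and is a nucleolar protein of ribosome assembly.

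The proximal promoters of Cebpa, Cebpb and Cebpg, the 3 C/EBP genes matched in the RefSeq promoter table used, are shown. Cebpa was the gene that differed between regions, Cebpg is its close neighbour on chromosome 7 and Cebpb is the related gene induced before it in fat cell precursors. The sequences are the 250 bases before the RefSeq transcription start on the gene's strand (build GRCm38.p6), and capitals mark matches to the motifs searched. In Cebpa, at chr7:35119043-35119292 on the plus strand, the capitals mark TTGCG, the shared core of many C/EBP sites. In Cebpb, at chr2:167688665-167688914 on the plus strand, they mark TGACG, the core of CREB and ATF sites, or its reverse complement. In Cebpg, at chr7:35056567-35056816 on the minus strand, they mark CCAAT read on the opposite strand.
Cebpa: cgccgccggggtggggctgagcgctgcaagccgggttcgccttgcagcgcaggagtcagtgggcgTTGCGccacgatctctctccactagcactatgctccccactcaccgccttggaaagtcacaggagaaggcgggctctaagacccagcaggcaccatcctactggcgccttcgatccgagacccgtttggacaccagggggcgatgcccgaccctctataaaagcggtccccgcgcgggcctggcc
Cebpb: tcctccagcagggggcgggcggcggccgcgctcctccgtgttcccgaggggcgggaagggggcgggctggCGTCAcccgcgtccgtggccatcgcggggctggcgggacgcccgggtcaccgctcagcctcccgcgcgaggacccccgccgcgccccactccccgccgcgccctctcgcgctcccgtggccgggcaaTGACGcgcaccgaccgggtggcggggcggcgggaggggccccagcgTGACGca
Cebpg: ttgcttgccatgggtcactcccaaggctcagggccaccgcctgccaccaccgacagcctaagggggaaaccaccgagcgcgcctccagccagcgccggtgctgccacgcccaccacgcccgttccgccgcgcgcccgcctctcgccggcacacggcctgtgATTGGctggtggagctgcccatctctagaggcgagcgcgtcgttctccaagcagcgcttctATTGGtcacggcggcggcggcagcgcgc

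The single TTGCG of Cebpa began 185 bases before the start. Cebpb held 3 matches to TGACG, which began 180, 53 and 7 bases before its start, and Cebpg held 2 matches to CCAAT, at 89 and 28 bases. Both strands were searched, and no motif overlaps another except that TTGCG can lie inside the longer C/EBP motif TTGCNNAA, which had no match in these 3 promoters. Among 32851 RefSeq promoters of the same length, TTGCG was present in 14.5%, TTGCNNAA in 9.56%, TGACG in 17.8% and CCAAT in 33.8%. The matches are descriptions of these windows, and binding was not measured. Cebpd, Cebpe and Cebpz are not shown.

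Between 53.7% and 64.0% of the spots of each array were well above background and no spot was saturated. The arrays lay on 2 slides, with replicates 1 and 2 of each region on slide 1 and the remaining arrays (RV3, RV4, LV3 and Septum3) on slide 2. All levels are log2 signals minus the 75th percentile of the same array, and they compare arrays for 1 probe, not probes with each other. A probe was tested only if all arrays of some region showed it well above background. Of the 22911 genes, 14645 were tested, among them 5 of the 6 C/EBP genes. A call is an adjusted p below 0.05 in limma. Cardiomyocyte markers lay between 8.26 and 8.51 in mean log2 level on every array, and 0 of 7 were called in any comparison. With the slide as a block, Actc1 (-0.23) and Ryr2 (-0.29) were called lower in the RV than in the LV. That fit called 21.3% of all genes. A block on the replicate number called both as well, and Ryr2 also against the septum. Of the 6 atrial markers Bmp10 was below background on every array, and the mean level of the 5 tested atrial markers reached 6.40 on Septum1 against 1.83 to 4.52 on the other arrays.

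Cebpa was the C/EBP gene that differed between the walls, with about 1.6 times as much transcript signal in the RV as in the LV or the septum. Its log2 level was -1.76, -1.80, -1.62 and -1.57 on RV1 to RV4. It was -2.23, -2.25 and -2.67 on LV1 to LV3, and -2.28, -2.30 and -2.44 on Septum1 to Septum3. All 4 RV arrays lay above every LV array and every septum array, with LV3 the lowest of the 10. The unscaled signal ran from 99.1 to 229, while the dimmest spots well above background ran from 23.7 to 55.4 on the different arrays, so Cebpa was a dim but detected probe.

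The RV mean of Cebpa was -1.69 ± 0.11 (SD, n = 4), the LV mean was -2.38 ± 0.25 (SD, n = 3) and the septum mean was -2.34 ± 0.089 (SD, n = 3). The RV exceeded the LV by 0.69 on the log2 scale (SE 0.12, 95% interval 0.42 to 0.96), a fold of 1.62 with an adjusted p of 0.0165 in limma. It exceeded the septum by 0.65 (SE 0.12, 95% interval 0.38 to 0.92), a fold of 1.57 with an adjusted p of 0.0286 in limma. Septum and LV differed by 0.039 with a 95% interval of -0.25 to 0.33. Thus the RV lay apart and the order of the other regions was not resolved. Without background correction of the kind Agilent applies, by normexp instead, the differences shrank to 0.43 and 0.42 and stayed called. The call against the LV was lost without RV4 (adjusted p = 0.0520), within slide 2 (a difference of 1.07) and when all 56605 probes were tested (adjusted p = 0.0811, limma); the call against the septum was lost without any 1 of the 4 RV or 3 septum arrays (differences 0.60 to 0.69, adjusted p up to 0.111), within slide 2 (0.85, adjusted p = 0.0814) and over all probes (adjusted p = 0.134).

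**Figure D1:**
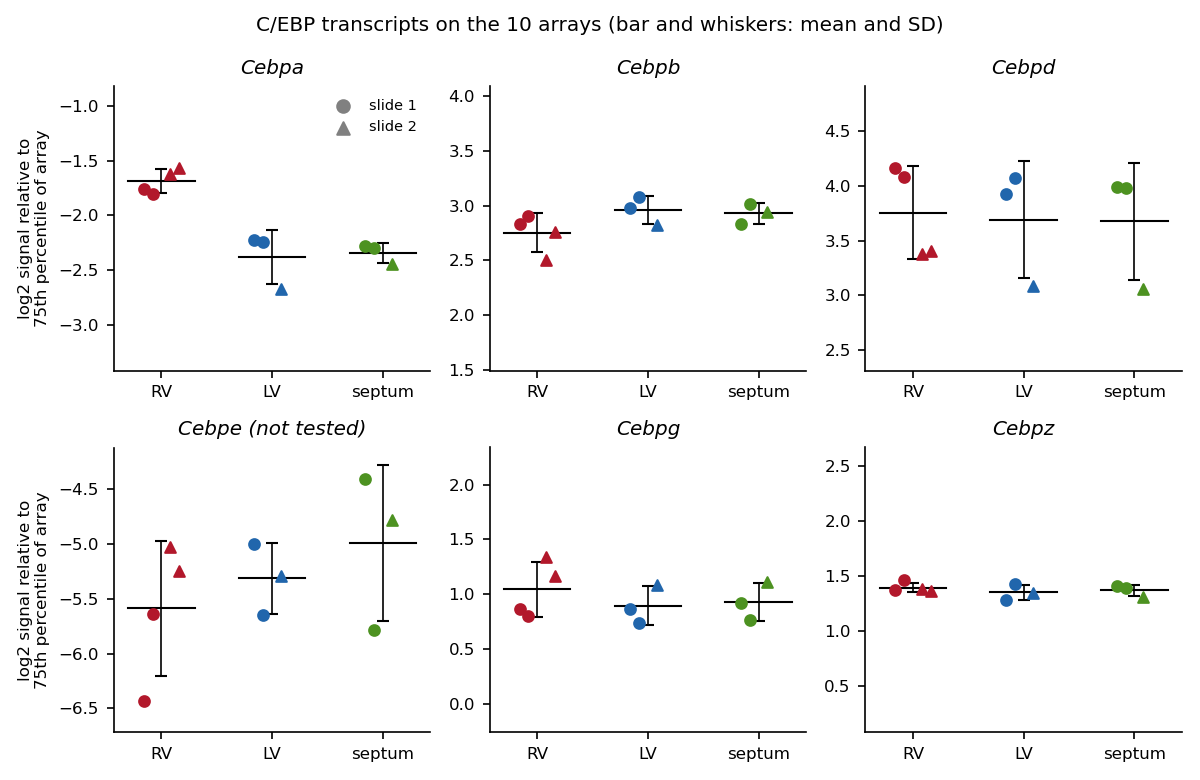
Log2 signal of the 6 C/EBP genes on the 10 arrays, relative to the 75th percentile of each array, by region; each panel spans the same width on its own axis, circles are slide 1, triangles slide 2, and bars with whiskers are means and SD. The 4 RV arrays of Cebpa (-1.80 to -1.57) sit above all LV and septum arrays, while Cebpd and Cebpg split by slide.

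Of the 5 tested C/EBP genes, 1 was called in RV against LV, where 4.98% of all genes tested were called, and 1 in RV against septum, where 2.7% were called. In the F test over the 3 regions, 1 of the 5 was called (Cebpa, adjusted p = 0.0209, limma) against 3.67% of all genes. In septum against LV limma called 0 of the 5 and 0.0% of all genes. There, 0 C/EBP genes and 862 of 30234 probes had an unadjusted p below 0.05, and other fits called up to 435 probes, from the methods' analysis of variance. Arrays that did not overlap, with the RV above, were found for 1 of the 5 against the LV and 1 against the septum, beside 9.16% and 6.94% of all genes.

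Cebpb, whose product acts early in fat cell formation and in the acute-phase response, was not called in any comparison. Its log2 level was 2.83, 2.91, 2.50 and 2.76 on the RV arrays, 2.98, 3.08 and 2.82 on the LV arrays and 2.83, 3.02 and 2.94 on the septum arrays. The regions overlapped, with RV3 the lowest array and LV2 the highest. The difference of the RV from the LV was -0.21 (SE 0.11, 95% interval -0.46 to 0.042, adjusted p = 0.347, limma) and from the septum -0.18 (95% interval -0.43 to 0.073, adjusted p = 0.539). The sign was thus opposite to that of Cebpa in both, and both intervals include 0.

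Cebpd, the partner of Cebpb in the early steps of both programmes, varied mainly between slides. Its log2 level was 4.16 and 4.08 on the RV arrays of slide 1 and 3.38 and 3.40 on those of slide 2. It was 3.92 and 4.07 on the LV arrays and 3.99 and 3.98 on the septum arrays of slide 1, against 3.09 on LV3 and 3.06 on Septum3. All slide 2 arrays lay below all slide 1 arrays, and within each slide both RV arrays lay above every LV and septum array, by the smallest margin for RV2 over LV2. With no account of the slide, the RV differed from the LV by 0.064 (SE 0.33, adjusted p = 0.939, limma) and from the septum by 0.080 (SE 0.33, adjusted p = 0.943). With the slide as a block, the differences were larger, at 0.20 (SE 0.065, adjusted p = 0.0643, limma) and 0.22 (SE 0.065, adjusted p = 0.0743), and still not called.

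Cebpg, the dampening partner, was measured by 2 probes, and neither was called between regions. The brighter probe read 0.86, 0.80, 1.34 and 1.17 on the RV arrays, 0.87, 0.74 and 1.08 on the LV arrays and 0.92, 0.76 and 1.11 on the septum arrays. The other probe read -0.96, -0.96, -0.27 and -0.50 in the RV, -0.72, -0.89 and -0.53 in the LV and -0.75, -0.81 and -0.49 in the septum. On both, the 4 arrays of slide 2 were the 4 highest and the regions overlapped. The RV differed from the LV by 0.15 (95% interval -0.19 to 0.49, adjusted p = 0.653, limma) on the brighter probe and by 0.041 (95% interval -0.36 to 0.45, adjusted p = 0.927) on the other. With the slide as a block the probes differed in sign, at 0.092 and -0.026, and neither was called. Thus the near neighbour of Cebpa on chromosome 7, with the predicted gene Gm45095 between them in the gene table, was not called where Cebpa was.

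Cebpz, the nucleolar member, had the narrowest range of the tested genes. Its log2 level was 1.38, 1.46, 1.38 and 1.37 in the RV, 1.29, 1.43 and 1.35 in the LV and 1.41, 1.39 and 1.31 in the septum. The regions overlapped, and the RV differed from the LV by 0.043 (95% interval -0.11 to 0.20, adjusted p = 0.789, limma) and from the septum by 0.026 (95% interval -0.13 to 0.18). Both intervals exclude a difference as large as that of Cebpa.

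Cebpe, the granulocyte member, was not tested because it was well above background on 1 of 10 arrays, Septum1. Its log2 level there was -4.41, and on the other arrays it read -6.43 to -4.78, values that were not well above background and have no reliable order. Of 14 granulocyte genes listed as targets of C/EBP epsilon, 8 were tested and 6 were not. Among neutrophil markers, S100a8, S100a9, Csf3r and Camp were detected on all 10 arrays, and Cxcr2, Ltf and Ngp were below background on every array.

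**Figure D2:**
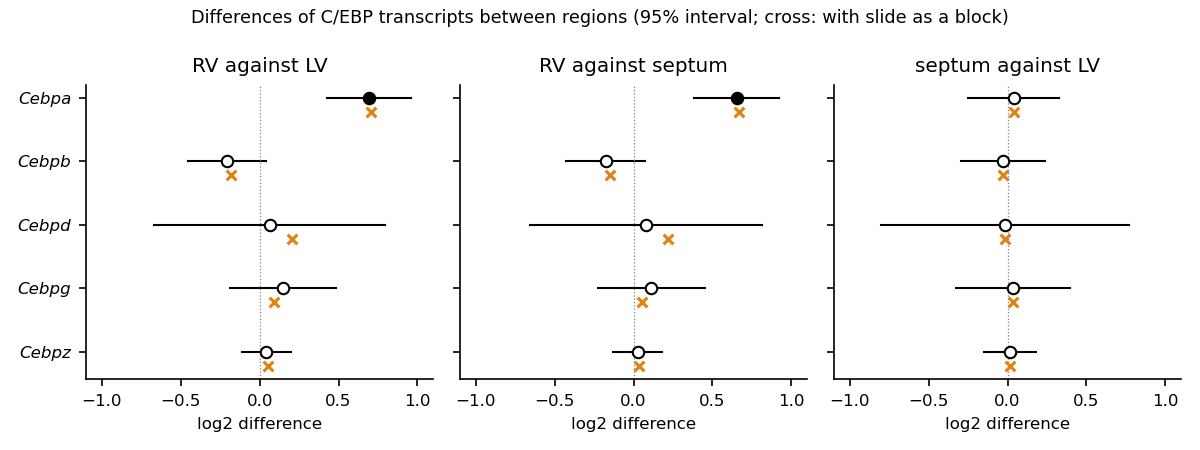
Differences between regions in log2 level for the 5 tested C/EBP genes, with 95% intervals from the limma fit; filled points are called (adjusted p below 0.05) and crosses give the difference with the slide as a block. Cebpa lies at 0.69 and 0.65 in the comparisons with the RV, and the intervals of all other genes include 0.

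The slides differed for many genes, so the shift of each C/EBP gene between slides was set beside its regional difference. In the fit with region and slide, slide 2 lay below slide 1 by -0.84 for Cebpd (SE 0.055, adjusted p = 0.000104, limma) and above it by 0.34 for the brighter and 0.41 for the other probe of Cebpg (adjusted p = 0.0035 and 0.00395). Cebpa (-0.088), Cebpb (-0.16) and Cebpz (-0.047) were not called. That is 2 of 5 genes called, where 45.3% of all genes tested were called for the slide. In the same fit the excess of Cebpa in the RV was 0.71 over the LV (adjusted p = 0.00629) and 0.67 over the septum (adjusted p = 0.0110). Within slide 1 alone it was 0.46 and 0.51 (adjusted p = 0.0425 and 0.0378, limma). Within both slides, every RV array lay above every LV and septum array of the same slide for 2 of 5 genes, Cebpa and Cebpd, a pattern held by 9.94% of all genes tested. What set the slides apart was not tested.

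Whether the change of Cebpa differed from that of its relatives was asked within each array, where any scaling of the array cancels. Cebpa was the gene already called on these same arrays, so the ratios largely restate its excess in the RV. They are no separate evidence of it, and the permutation treats the arrays as exchangeable. The RV arrays were set against the 6 other arrays in an exact two-sided permutation test over all 210 assignments, whose smallest p is 0.00476, with adjustment over the 4 relatives. Over the same arrays the RV mean minus the mean of the others was 0.67 on the log2 scale for Cebpa, 0.13 for Cebpg, 0.072 for Cebpd, 0.034 for Cebpz and -0.19 for Cebpb. Relative to Cebpb, Cebpa was 0.86 higher in the RV (exact p = 0.00476, adjusted 0.00952). Relative to Cebpz it was 0.64 higher (exact p = 0.00476, adjusted 0.00952), and relative to Cebpg 0.54 higher (exact p = 0.0143, adjusted 0.0190). In each of these 3 ratios all 4 RV arrays lay above the 6 others. Relative to Cebpd it was 0.60 higher (exact p = 0.0619, adjusted 0.0619) with 2 of 4 RV arrays above all others. When labels were permuted only within slides, which leaves 90 assignments, the same difference from Cebpd had an exact p of 0.0111 (adjusted 0.0148). The difference from Cebpg shrank to 0.28 after normexp correction (exact permutation p = 0.100, adjusted 0.133).

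**Figure D3:**
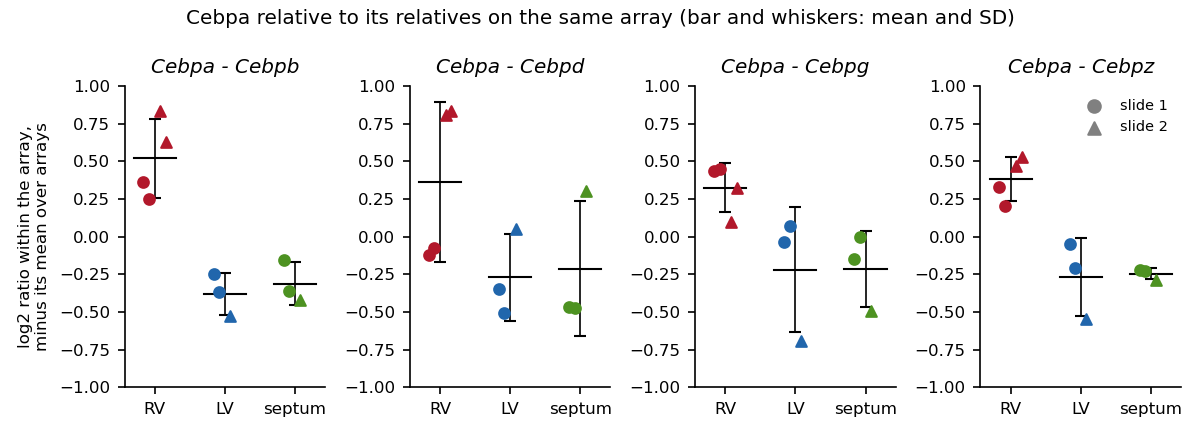
Log2 ratio of Cebpa to each relative within the same array, minus the mean of that ratio over the 10 arrays, by region (circles slide 1, triangles slide 2, bars and whiskers mean and SD). The 4 RV arrays lie above all others for Cebpb, Cebpg and Cebpz, and 2 of 4 do for Cebpd, where the slides separate.

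The genes whose pattern over the 10 arrays was most like that of each C/EBP gene were listed by Pearson's r of log2 levels among 14616 genes. For Cebpa they were Bicc1 (r = 0.971), which encodes an RNA-binding protein, 0610040J01Rik (r = 0.969) and Adgra2 (r = 0.966), which encodes a receptor needed for Wnt7 signalling in brain vessels. For Cebpb they were Pi4k2a (r = 0.968), Ccr8 (r = 0.965) and Agfg2 (r = 0.964), and for Cebpg they included Spred1 (r = 0.981) and Rell1 (r = 0.974). For Cebpd they were Nsmce4a (r = 0.988), Traip (r = 0.984) and Olfr1344 (r = 0.980). For Cebpz the highest values were lower, with Cmtm2a at 0.844, Ifitm3 at 0.832 and Trpv6 at 0.831. The arrays share regions and slides, so these values are descriptions. With slide means removed, Bicc1 kept an r of 0.972 with Cebpa, while Olfr1344 fell to an r of 0.786 with Cebpd.

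Between the C/EBP genes themselves, r over the 10 arrays was 0.23 for Cebpa with Cebpd and became 0.93 once slide means were removed. Cebpb and Cebpg ran in opposite directions before (r = -0.84) and after (r = -0.90) that step. Cebpd and Cebpg changed from -0.81 to 0.45. The relation of Cebpa to Cebpd and that of Cebpd to Cebpg therefore depended on how the slides were handled, and that of Cebpb to Cebpg did not change sign.

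The genes around the C/EBP proteins were taken from 9 lists of partners, regulators and targets. With Cfd, C3 and Ccl5, which the study follows beside Cebpa, they held 118 tested genes. Of these, 12 were called in RV against LV, 5 in RV against septum and 0 in septum against LV. Cfd is among the 12 and C3 among the 5. The study chose both with these arrays in view, so the counts are not independent of that choice. Beside the shares of all genes called in either direction given above, 3.14% of all genes were called higher and 1.84% lower in RV against LV, and 1.68% higher and 1.02% lower in RV against septum. Blocking on the replicate number gave 31, 12 and 0 calls, in a fit that called 17.9% of all genes in RV against LV and 8.69% in RV against septum. Over all genes tested the median difference was -0.052 in RV against LV and -0.038 in RV against septum.

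In both comparisons with the RV, the list of fat cell targets held the most calls. Of 12 textbook targets of C/EBP alpha in fat cells, 5 rose and 1 fell in RV against LV, with a list median of 0.49. In RV against septum 2 rose and 1 fell, with a median of 0.32. Of those that rose, Plin1 and Pck1 passed the filter only through the RV arrays, so the filter favoured a rise in the RV for them. Cidec, which builds lipid droplets, ran from 1.58 to 2.49 in log2 level on the RV arrays, -2.95 to -1.39 on the LV arrays and -0.71 to 0.86 on the septum arrays. It was 4.24 higher in the RV than in the LV (SE 0.45, adjusted p = 0.00307, limma) and 2.19 higher than in the septum (SE 0.45, adjusted p = 0.0432). Its 3 regions did not overlap, with the septum in the middle.

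Adipoq, the adipokine adiponectin, was detected well above background on all RV and septum arrays but not on any LV array, and was at least 14.5-fold higher in the RV than in the LV (adjusted p = 0.00377, limma). Such a bound sets the mean of the brighter region against the higher of the dim probe's own level and the lowest level well above background on each array. Plin1, the lipid droplet coat protein perilipin, and Pck1, an enzyme of glyceride and glucose synthesis, were well above background on the 4 RV arrays, 1 septum array and no LV array. They were at least 4.34-fold (adjusted p = 0.00377) and at least 3.36-fold (adjusted p = 0.0446) higher in the RV than in the LV. Retn, which encodes the adipokine resistin, was 3.26 higher than in the LV (SE 0.48, adjusted p = 0.00806, limma). Against the septum, where 1 of 3 arrays measured it, Plin1 was called higher with a fitted difference of 2.10 (SE 0.40, adjusted p = 0.0326), while Adipoq, Pck1 and Retn were not called.

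Other targets in the same list behaved differently. Insr, the insulin receptor, fell in the RV by 0.47 against the LV (SE 0.087, adjusted p = 0.0203, limma) and by 0.50 against the septum (SE 0.087, adjusted p = 0.0245). The differences between RV and LV of Lep (-0.15), Fabp4 (-0.24), Slc2a4 (-0.26), Lpl (-0.23) and Agt (-0.63) were not called. Scd1 was 1.12 higher in the RV than in the LV and also not called (adjusted p = 0.0918, limma). With the slide as a block, in a fit that called 21.3% of all genes, Scd1 (1.16) and Slc2a4 (-0.27) were called against the LV. The replicate block called Slc2a4 but not Scd1. The calls of Adipoq, Cidec, Plin1 and Retn against the LV held without any single array, whereas that of Pck1 was lost in 7 and that of Insr in 5 of the 10 fits without an array. Against the septum the calls of Plin1, Cidec and Insr were lost in 8, 7 and 4 of those fits. When all probes were tested, the calls of Adipoq, Cidec, Plin1 and Retn against the LV stayed and those of Pck1 and Insr were lost, as were all 3 against the septum. With the replicate number as block, Pck1 against the LV (adjusted p = 0.0651, limma) and Cidec against the septum (2.05, adjusted p = 0.0699) were no longer called.

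Among 18 transcription factors of fat cell formation other than the C/EBP genes, 17 were tested and 1 was called in RV against LV, none in the other comparisons. Gata3, which holds back fat cell formation and can bind C/EBP proteins, ran from -1.66 to -0.99 in log2 level in the RV, -2.71 to -2.02 in the LV and -2.26 to -1.47 in the septum. It was 1.17 higher in the RV than in the LV (SE 0.24, adjusted p = 0.0306, limma), a call lost in 5 of the 10 fits without an array. The list median was 0.080 in RV against LV. With the slide as a block, Zfp423 was also called higher, against the LV (0.60, adjusted p = 0.00554, limma) and the septum (0.42, adjusted p = 0.0293). The replicate block called Zfp423 higher against the LV (0.62) and Nr1h3 lower against both (-0.26 and -0.25).

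Of 22 acute-phase and inflammatory targets of C/EBP beta and delta, 9 were tested. In RV against LV 2 rose and 1 fell (list median 0.46), and in RV against septum 1 rose and 1 fell (median 0.23). Hp, the haemoglobin-binding haptoglobin, was 4.01 higher in the RV than in the LV (SE 0.48, adjusted p = 0.00377, limma), with RV arrays from 2.06 to 3.24 and LV arrays from -2.21 to -0.68. Itih4, a plasma protein of the inter-alpha-trypsin inhibitor family, was 2.29 higher (SE 0.47, adjusted p = 0.0301), a call lost in 4 fits without an array. Against the septum Itih4 was called with the replicate block (1.68, adjusted p = 0.0444, limma). Cp, the copper carrier ceruloplasmin, fell by 0.48 against the LV (SE 0.11, adjusted p = 0.0427) and by 0.55 against the septum (SE 0.11, adjusted p = 0.0366), calls that were lost in 10 and 8 of the 10 fits without an array. The classical acute-phase genes Saa2, Saa3, Orm1, Orm2, Orm3, Crp, Fga, Fgb and Fgg were among the 13 not tested.

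Cfd, C3 and Ccl5 were chosen by the study with these and other samples in view, so their direction is no independent evidence. Cfd, the gene of the fat cell protease complement factor D, was 4.78 higher in the RV than in the LV (SE 0.54, adjusted p = 0.00338, limma) and 2.27 higher than in the septum (SE 0.54, adjusted p = 0.0725). C3, the central complement protein, was 1.34 higher than in the septum (SE 0.26, adjusted p = 0.0355) and 0.89 higher than in the LV (SE 0.26, adjusted p = 0.0959), and the call against the septum was lost in 7 of the 10 fits without an array. Ccl5, a chemokine, was not called, with differences of 0.48 and 0.66 (adjusted p = 0.490 and 0.434). With the replicate block C3 was called against the LV (0.89, adjusted p = 0.00874, limma) and Ccl5 against the septum (0.74, adjusted p = 0.0443). When all probes were tested, Hp and Cfd stayed called against the LV, and the calls of Gata3, Itih4, Cp, C3 and Rrp12 were lost.

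Factors that pair with or modify C/EBP proteins were not called unless the slide or the replicate number entered the fit. Of 15 leucine zipper partners, 0 were called in any comparison (list median -0.054 in RV against LV). The differences between RV and LV farthest from 0 were 0.99 for Batf3 (adjusted p = 0.174, limma), 0.77 for Fos (adjusted p = 0.411) and 0.39 for Batf (adjusted p = 0.182). The Fos probe lacked a value on an RV array, so all fits of Fos rest on fewer RV arrays. Of 16 kinases, adaptors and cofactors that modify, degrade or assist C/EBP proteins, 0 were called and 12 of 16 had a negative difference (median -0.13). The lowest were Trib1, an adaptor that sends C/EBP alpha to degradation, at -0.47 (SE 0.20, adjusted p = 0.235), Gsk3b, a kinase that phosphorylates C/EBP proteins, at -0.30 (adjusted p = 0.340) and Carm1, an arginine methyltransferase, at -0.27 (adjusted p = 0.262). With the slide as a block, where 21.3% of all genes were called in RV against LV and 11.0% in RV against septum, 6 of the 16 were called lower in the RV than in the LV, Trib1, Gsk3b, Carm1, Celf1, Cop1 and Gsk3a, and Trib1 and Gsk3b also against the septum. In the same fit 3 of the 15 partners were called against the LV, Nfil3 (-0.42), Batf (0.43) and Atf4 (-0.26), and Batf and Atf4 also against the septum. The replicate block called 5 of the 16 (all of those but Gsk3a) and 4 of the 15 against the LV, with Fos (0.91, adjusted p = 0.0426) the addition among the partners.

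Signals that induce Cebpb and Cebpd were described by a further list. Of 21 genes of cytokine and glucocorticoid signalling, 18 were tested and 0 were called (median -0.040 in RV against LV), and the ligands Il6, Osm and Lif were not tested. Zbtb16, a glucocorticoid target, differed by -0.46 between RV and LV (adjusted p = 0.364, limma), Il6ra, the interleukin 6 receptor, by 0.35 (adjusted p = 0.151) and Sgk1, a kinase induced by glucocorticoids, by -0.35 (adjusted p = 0.217). With the slide as a block Il6ra (0.31, adjusted p = 0.0251), Fkbp5 (-0.30, adjusted p = 0.0310) and Tsc22d3 (0.26, adjusted p = 0.0410) were called against the LV, Il6ra also against the septum (0.34, adjusted p = 0.0277), and the replicate block made the same calls. Of the listed granulocyte genes 8 of 14 were tested and 0 called. Mmp9, a gelatinase of neutrophil granules, was well above background on the 4 RV arrays, 1 septum array and no LV array. It thus passed the filter only through the RV. It was at least 1.80-fold higher in the RV than in the LV and not called (adjusted p = 0.142, limma). Against the septum its fitted difference was 1.65 and not called (adjusted p = 0.0673, limma). There it was called with the slide as a block (1.58, adjusted p = 0.0341) but not with the replicate block. Between RV and LV, Lcn2 differed by -0.33 and Lyz2 by 0.30.

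Of 18 ribosome assembly factors that work beside the nucleolar product of Cebpz, 1 was called in RV against LV and 0 in the other comparisons. Rrp12, needed for export of ribosomal subunits, fell by 0.72 in the RV against the LV (SE 0.15, adjusted p = 0.0296, limma), a call lost in 5 of the 10 fits without an array. The list median was -0.17, and 16 of the 18 had a negative difference. The replicate block called 5 of the 18 lower against the LV and 2 against the septum, Rrp12 among both (-0.60 against the septum, adjusted p = 0.0148, limma). The 4 other CCAAT-binding factors Nfya, Nfyb, Nfyc and Ybx1 were not called, with differences between RV and LV of -0.16 to 0.13.

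**Figure D4:**
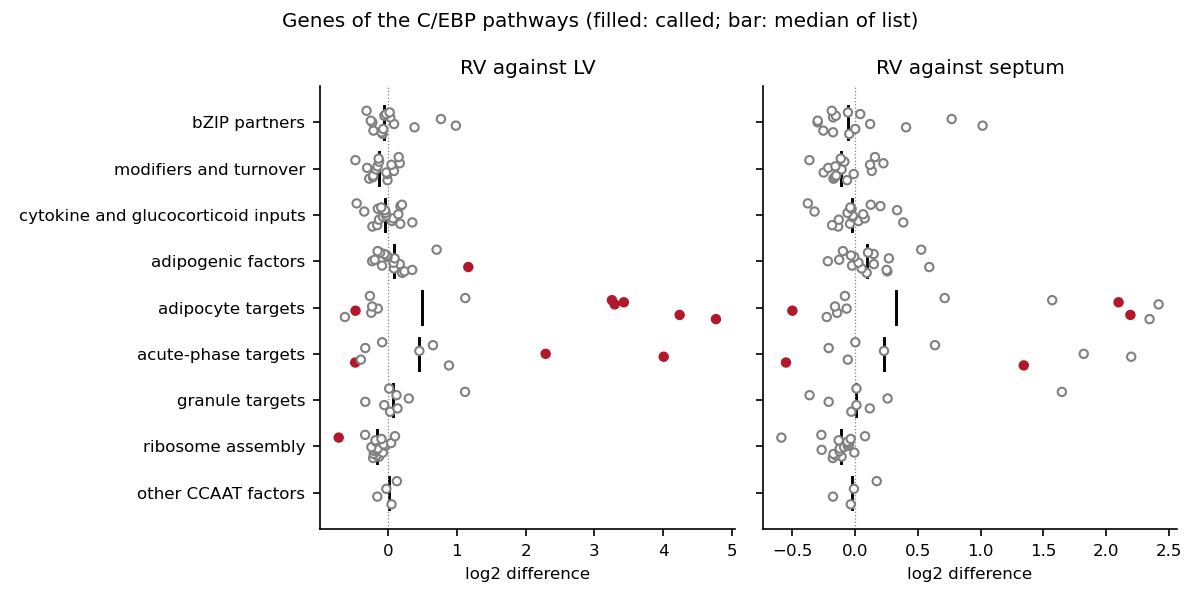
Differences in log2 level of the tested genes of the 9 lists in RV against LV (left) and RV against septum (right); each circle is a gene, filled where called, and the bar is the list median. The filled circles above 1 lie in the adipogenic, adipocyte target and acute-phase lists, and the partner and turnover lists hold none.

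Markers of other cell types were read on the same arrays, and several lists were higher where Cebpa was higher. Of 13 adipocyte markers, 4 were called higher in RV against LV and 2 in RV against septum, all of them also targets of C/EBP alpha in the list above. The other markers did not share this direction, since 6 of the 13 differences were positive in each comparison and the list medians were -0.076 and -0.054. The mean log2 level of the 13 ran from 0.45 to 0.68 on the RV arrays, -0.80 to -0.51 on the LV arrays and -0.26 to 0.30 on the septum arrays. All septum arrays thus lay above all LV arrays in this mean, whereas Cebpa differed by 0.039 between septum and LV. Of 5 brown fat markers, Ucp1 and Zic1 were below background on every array and Elovl3 was not tested, whereas Cidea and Dio2 were detected on all 10 arrays and not called. Dio2, which activates thyroid hormone, differed by 1.35 between septum and LV. Its septum arrays all lay above its LV arrays, a pattern held by 3.63% of all genes tested.

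Mesothelial markers, of the cell layer that covers the heart, ran from -0.65 to 0.77 in mean log2 level in the RV, -1.82 to -1.07 in the LV and -3.63 to -1.86 in the septum. Of 11 tested, 1 was called in RV against LV and 10 in RV against septum, and with the slide as a block 10 and 11 were called. Bnc1 and Lrrn4, both called against the septum, passed the filter only through the RV arrays. All 11 differences between septum and LV were negative, none of them called. Fibroblast markers ran from 2.75 to 3.35 in the RV, 2.32 to 2.54 in the LV and 2.60 to 2.82 in the septum. Of 9, Dcn, Pdgfra and Tcf21 rose in RV against LV, and Tcf21 rose in RV against septum, by 0.52 (adjusted p = 0.0378, limma). With the slide as a block, where 21.3% and 11.0% of all genes were called, 6 and 2 of the 9 were called. Macrophage markers ran from 1.69 to 1.97 in the RV, 1.25 to 1.77 in the LV and 1.17 to 1.76 in the septum. In either comparison with the RV, 11 of 11 differences were positive and the fit without a block called 0. The slide block called 2 higher in RV against LV, Csf1r and C1qa. It called 3 in RV against septum, Csf1r, C1qa and Cd163. The replicate block called 4 and 2 of the 11 in these comparisons.

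Of 7 endothelial markers, Vwf was called in both comparisons with the RV, by 1.65 and 1.18. With the slide as a block 5 of the 7 were called against the LV, in both directions, and 1 against the septum. Of the atrial markers Dkk3 was called in RV against LV, by 3.08. The median difference of the 5 tested atrial markers was -1.80 in RV against septum, where 0 were called. Nppa, the atrial natriuretic peptide gene, differed by -2.21 from the LV and -2.32 from the septum (adjusted p = 0.0504 and 0.0605, limma). With the slide as a block Nppa was called in both. Of 5 neutrophil and 4 red blood cell markers tested, 0 were called. The part of any of these cell types in the difference of Cebpa was not tested.

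**Figure D5:**
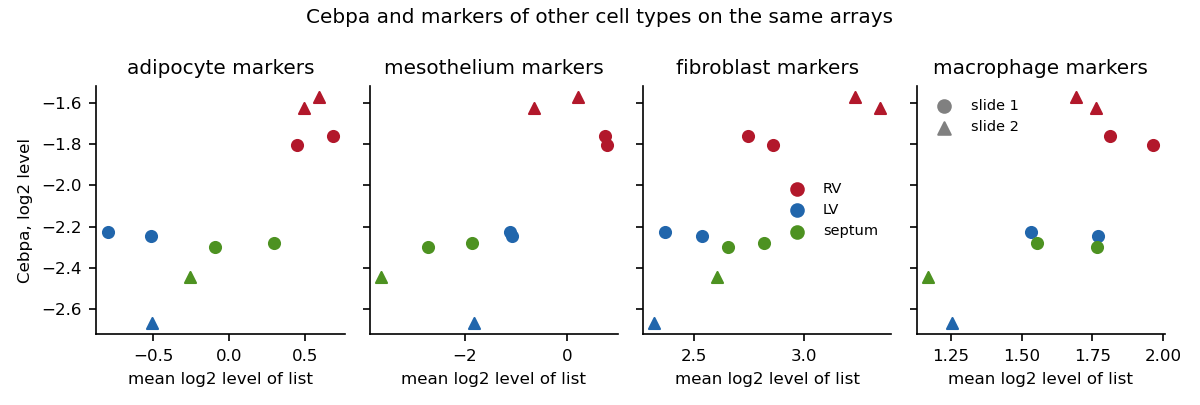
Log2 level of Cebpa against the mean log2 level of adipocyte, mesothelium, fibroblast and macrophage markers on the 10 arrays, coloured by region (circles slide 1, triangles slide 2). The RV arrays lie at the top in every panel, and the septum arrays lie right of the LV arrays for adipocyte markers and left of them for mesothelium markers at a similar level of Cebpa.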

How the data were processed

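Groups and replicate numbers came from the sample titles. The deposited intensity values are the output of Agilent Feature Extraction (version 11.5.1.1, per the labels), which subtracts background, and are unscaled. They also deposited a table of log2 values made with GeneSpring, which served as an alternative and lay within 0.05 of the values used here once a constant per array was removed, for 100.0% of probes. The study's own calls were not used.

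Control spots and 56 to 128 outlier spots per array were dropped. Levels are means of a probe's log2 signals after subtraction of the 75th percentile within the array. Of 56605 probes, 30234 (53.4%) were tested, with the brightest probe per gene. Symbols came from RefSeq accessions (GRCm38.p6). Region means over the 10 arrays were fitted together in limma 3.58.1 (R 4.3.3) and Benjamini-Hochberg adjustment over all probes. The number of arrays limits the precision. The fit was tested on simulated data. The C/EBP genes, lists and tests were chosen with earlier results of these data known. The genes named are the C/EBP genes, the 3 most similar genes of each (1 of them is not reported here), and the called genes of each list, or up to 3 with the largest difference where none was called.

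Same-numbered arrays of different regions deviated together (r of 0.36 to 0.64 in 9 pairs), but arrays of 1 slide with other numbers also did (0.090 to 0.58). On the slide of RV1, same-numbered pairs reached 0.36 to 0.52 and the others 0.090 to 0.31. On the slide of RV3, LV3 and Septum3 had an r of 0.64. There RV4, whose number no other array carries, had higher values with LV3 and Septum3 (0.57 and 0.58) than RV3 had (0.43 and 0.44). The replicate block takes the numbers to pair the arrays, which was thus not seen for RV3. The main fit has no block, and the blocked fit is an alternative. The alternatives tried were quantile normalization, median scaling, scaling by probes detected on all arrays, normexp (offset 50, on median signals, since the files used hold no mean signals), the authors' table, no filter, slide and replicate blocks, each slide alone, each array left out, and the methods' analysis of variance with Tukey's test.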

Additional observations from a re-analysis of the deposited data

Results flagged for a closer look

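One value stood apart within its region. For Cebpz on the RV arrays, RV2 read 1.46 against 1.37 to 1.38 on the other 3, a gap of 0.870 of the whole range of the 4 arrays, above Dixon's 95% limit for 4 values. Chance flags about 1 in 20 groups, and the range of Cebpz over the 10 arrays was 0.17 on the log2 scale. The differences of Cebpz between regions stayed uncalled without RV2.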

How the results depend on the processing

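The count of C/EBP genes called, 1 in each of RV against LV, RV against septum and the F test, became 0 in all 3 with no filter and within slide 2, and 0 in the F test within slide 1. Without 1 array it ran from 0 to 1 in each, and was lost against the LV without RV4, against the septum without each RV and septum array, and in the F test without each RV array. Quantile, median and detected-probe scaling, normexp, the authors' table, the slide block and both replicate blocks kept the call of Cebpa in both comparisons. In the methods' analysis of variance Cebpa had a Tukey p of 0.00182 and 0.00255, values that were not adjusted over probes. With the fixed replicate block the differences of Cebpa were 0.65 and 0.61 (adjusted p = 0.0231 and 0.0383, limma). RV4 does not contribute to these differences, since no other array carries its number. The replicate block changed no other call of a C/EBP gene.

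Genes called in the lists (12 and 5 of 118 in RV against LV and RV against septum) were 7 and 3 with scaling by the median, 6 and 0 with no filter, 32 and 18 with the slide block, 31 and 12 with the replicate block and 35 and 19 with a random replicate block. By Tukey's test in the methods' analysis of variance, not adjusted over probes, they were 19 and 13, with 4 in septum against LV. They were 1 against the septum within slide 1 and 9 against the septum with normexp. Without 1 array they ran from 6 to 12 and from 0 to 8. Over all probes, calls in RV against LV went from 1167 to 5331 with the slide block and 269 with no filter. The causes were not tested.

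Relative to Cebpg, Cebpa was 0.28 higher after normexp (adjusted exact p = 0.133), and relative to Cebpd 0.60 (adjusted exact p = 0.0148) with labels permuted within slides and 0.44 to 0.76 without 1 array.

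Directions turned only for differences that were not called. In septum against LV, Cebpa was -0.0062 with quantile normalization, -0.025 with the median and -0.053 within slide 1. Cebpb was 0.0021 with quantile normalization and 0.12 within slide 2, and Cebpd 0.022 with quantile normalization and 0.0046 with detected-probe scaling. Cebpg was -0.029 and Cebpz -0.048 with the median, Cebpz was -0.036 within slide 2, and Cebpg in RV against septum was -0.0080 within slide 1. Without 1 array the septum against LV ranges were -0.10 to 0.12 for Cebpa, -0.10 to 0.029 for Cebpb, -0.32 to 0.29 for Cebpd, -0.053 to 0.13 for Cebpg and -0.016 to 0.053 for Cebpz. For Cebpd they were -0.24 to 0.25 in RV against LV and -0.23 to 0.24 in RV against septum, and for Cebpz -0.0037 to 0.044 in RV against septum. Cebpe had no measured difference, because its signal exceeded background on 1 array.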
